A study of Homo sapiens with 2 samples.

Results

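Precursors of 3 miRNA groups that are best known from imprinted loci, placenta and pluripotent cells were followed in small RNA bound to Argonaute proteins. Members were taken by the number in the precursor name, with any letter or copy: 37 precursors of the imprinted DLK1-DIO3 region, 32 of the placental cluster on chromosome 19 and 6 of the pluripotency clusters, 75 of 1038 precursors with a count. The samples came from HEK293 cells (a human embryonic kidney line, strain HEK293 T-Rex per the labels) that expressed FLAG-tagged AGO2 in 1 library and FLAG-tagged AGO3 in the other, with the tag used to pull down the protein and its small RNA. Neither a treatment nor a time is named for either library. Untagged or untransfected cells were not analysed here, the proteins were tagged versions expressed in the line, and each protein was sequenced with its own 3′ adapter, so that protein and adapter cannot be told apart. Having 1 library per group, the comparison has no replicate check, so differences are described without a test. The 95% intervals (exact, by Clopper and Pearson) reflect counting error alone: the 5′ adapter adds a short random barcode, but whether repeated reads were collapsed by it is unknown here.

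Argonaute proteins hold mature miRNAs and find target RNAs mainly through the seed, bases 2 to 8 of the miRNA. The DLK1-DIO3 region carries a long row of miRNA hairpins in noncoding RNA made from the maternal chromosome, and it is known for activity in embryo, placenta and brain. The placental cluster is a primate-specific, imprinted array of related hairpins. The miR-302 and miR-367 hairpins and the miR-371 to miR-373 hairpins are hallmarks of embryonic stem cells and are usually off in differentiated cells.

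Per file header, AGO2 had 6674064 reads, of which 3485257 were counted on precursors, and AGO3 had 4667236 reads, of which 3055417 were counted. A precursor without a count may still stand at up to 3 counts, which is 0.861 CPM (counts per 1000000 precursor counts) in AGO2 and 0.982 CPM in AGO3. The precursors fixed as abundant in HEK293 cells, which are the miR-17 cluster and its relatives and the HOX cluster miRNAs mir-10, mir-196 and mir-615, took 32.9% of AGO2 and 28.8% of AGO3 counts. Markers of other cell types took 4.41% and 7.40%, of which mir-126 alone took 2.89% and 4.69%. Of the 28 marker numbers, 26 had a row, and the blood marker mir-223 and the muscle marker mir-206 had none. The lists ranged from 1 and 2 counts for the liver marker mir-122 to 100671 and 143256 for the endothelial mir-126.

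The mature sequences of the DLK1-DIO3 precursors with at least 20 counts are shown first because these precursors hold most of the DLK1-DIO3 counts. Capitals mark the seed. They were taken from RefSeq (GRCh38.p14) and all lie on the plus strand of chromosome 14; miR-376c-3p, for example, is at chr14:101039732-101039752 in that build. Where read stacks were found on both sides of the hairpin the arm with more reads is given, and otherwise both arms.
miR-376c-3p: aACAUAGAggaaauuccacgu
miR-376b-3p: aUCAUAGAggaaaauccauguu
miR-376b-5p: cGUGGAUAuuccuucuauguuu
miR-376a-3p: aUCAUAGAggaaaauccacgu
miR-376a-5p: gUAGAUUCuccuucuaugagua
miR-376a-2-5p: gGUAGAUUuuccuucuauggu
miR-369-3p: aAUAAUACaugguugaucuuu
miR-889-3p: uUAAUAUCggacaaccauugu
miR-889-5p: aAUGGCUGuccguaguaugguc
The mir-376a copies and mir-376b share the seed UCAUAGA on the 3p arm, while mir-376c has ACAUAGA there. The mature miR-376a-3p is the same in mir-376a-1 and mir-376a-2, so their counts cannot be assigned to a copy from that arm. The 5p arms of mir-376b and mir-376c share GUGGAUA.

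The placental and pluripotency groups overlap in seed, and these sequences are shown because the overlap extends by a shift of 1 base to the miR-17 family, which is abundant in these cells. The seed AAGUGCU was found in 5 placental and 7 pluripotency precursors, among them the following.
miR-520a-3p: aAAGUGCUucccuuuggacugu
miR-520d-3p: aAAGUGCUucucuuuggugggu
miR-302a-3p: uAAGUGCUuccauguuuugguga
miR-302b-3p: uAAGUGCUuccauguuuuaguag
miR-372-3p: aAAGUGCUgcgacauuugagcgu
miR-373-3p: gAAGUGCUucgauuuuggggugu
The seed AAAGUGC was found in 2 placental precursors and in the 6 precursors of the miR-17 family; those 2 and 3 of the family are shown.
miR-526b-3p: gAAAGUGCuuccuuuuagaggc
miR-519d-3p: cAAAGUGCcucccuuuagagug
miR-17-5p: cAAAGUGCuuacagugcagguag
miR-20a-5p: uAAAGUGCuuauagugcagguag
miR-106b-5p: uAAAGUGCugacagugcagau
No mature miRNA of DLK1-DIO3 holds AAGUGC within bases 1 to 9, whereas 15 of 53 distinct placental and 9 of 20 distinct pluripotency miRNAs do, against 1.32% of all 2351 distinct mature miRNAs in the table. Only the RNA strand shown was searched, and AAGUGC lies inside both seeds above.

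Counts of the precursors with AAGUGC within bases 1 to 9, both arms together, differed widely. These are 17 placental and 9 pluripotency precursors, a wider set than those with the seeds above. Placental precursors with AAGUGC had 20 AGO2 and 30 AGO3 counts in sum, and the pluripotency precursors with it had 6 and 4. With the seed AAGUGCU alone, placental precursors had 9 and 16 counts and pluripotency precursors 2 and 1. The placental precursors with the seed AAAGUGC had 2 and 5. The 6 precursors of the miR-17 family, which promotes cell growth, held 649224 and 468607 counts, or 18.6% and 15.3%. Whether any read counted on the placental or pluripotency hairpins came from a miR-17 relative was not tested, since the counts carry no read sequences.

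Other sequence features were compared between the groups, and some of them differed little. Of the placental precursors with a mature sequence in RefSeq, 29 of 44 share an identical mature miRNA with another precursor, against 6 of 51 in DLK1-DIO3 and 0 of 11 in the pluripotency group. The placental group had 33 distinct seeds among 53 distinct mature miRNAs, and DLK1-DIO3 had 80 among 90. A first base A was present in 42.2% of the distinct DLK1-DIO3 miRNAs, 35.8% of the placental and 55.0% of the pluripotency ones, and in 27.7% of all. The pluripotency value is 11 of 20 sequences. A first base C was present in 11.1%, 35.8% and 5% of the miRNAs of the groups in the same order, and in 21.6% of all. The GC content of the 3 groups was 46.7%, 47.3% and 43.6%, and that of all mature miRNAs was 52.4%.

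Most members were counted less than the median precursor: 3 DLK1-DIO3 members, mir-376c, mir-376b and mir-369, lay above it, and no placental or pluripotency member did. The DLK1-DIO3 sum was 402 with AGO2 and 153 with AGO3, or 115 and 50.1 CPM. The placental group summed to 47 and 57 counts, or 13.5 and 18.7 CPM. The pluripotency group summed to 9 and 5 counts, or 2.58 and 1.64 CPM. Together the 75 members thus held 0.0131% (interval 0.0120 to 0.0144) of AGO2 and 0.00704% (0.00613 to 0.00804) of AGO3 counts. Because RNA was taken from a whole culture, few cells with a miRNA and little miRNA in every cell cannot be told apart.

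**Figure D1:**
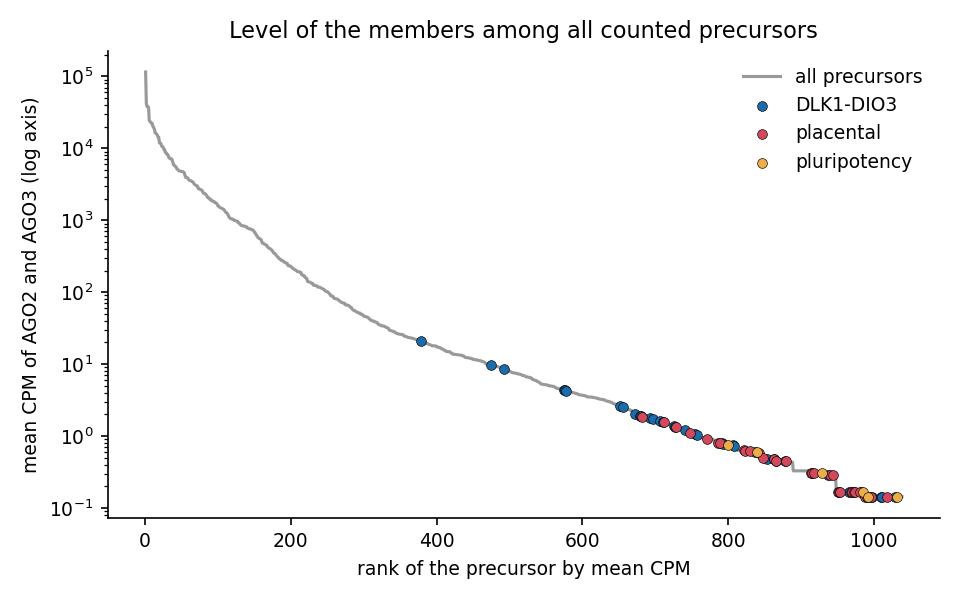
Mean CPM of AGO2 and AGO3 (log axis) against rank for all 1038 precursors (grey line), with members of the 3 groups as coloured points. The best rank is 378 in DLK1-DIO3, 681 in the placental group and 798 in the pluripotency group.

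The median member had 7 counts over both libraries in DLK1-DIO3, 2 in the placental group and 1.5 in the pluripotency group, and the median of all 1038 precursors was 45. At most 3 counts were found for 12 of 37, 21 of 32 and 4 of 6 members. The same share over all precursors was not computed, but 719 of the 1038 had at least 10 counts. The most abundant DLK1-DIO3 precursor, mir-376c, held 25.2% of that group's counts. RefSeq lists 107 precursors under the rule, 51, 45 and 11 by group, so that 14, 13 and 5 had no row in either library and count as 0. In DLK1-DIO3 these included mir-370, mir-433 and mir-485, in the placental group mir-519d and all copies of mir-516, and in the pluripotency group mir-302d, mir-372 and mir-373.

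The first comparison asked whether AGO2 and AGO3 held the imprinted DLK1-DIO3 miRNAs to the same extent. Their summed share was 2.30-fold higher with AGO2, a log2 ratio of AGO3 over AGO2 of −1.20 (−1.48 to −0.93). This ratio divides shares of the precursor counts, after a pseudocount of 0.5, adjusted for library size, was added. Of the 37 precursors with a count, 30 had a lower and 7 a higher share in AGO3, where 44.9% and 55.1% of all 1038 precursors did. The median log2 ratio of the 6 with at least 20 counts was −1.22, and that of all 638 precursors past this minimum was 0.15. At least 2-fold lower in AGO3 were 4 of those 6, where 10.8% of all precursors past the minimum were, and none was at least 2-fold higher, where 18% of all were. With a minimum of 10 counts 12 of 15 were lower and 1 higher (12.7% and 18.6% of all), with 50 counts 2 of 3 and none (9.52% and 17.1%), and with no minimum 21 of 37 and 4 (18.7% and 23.3%). Scaling by median of ratios, by TMM or to all reads shifts the log2 scale by −0.19, −0.16 or 0.33, less where the pseudocount outweighs a few counts. Scaled to all reads the sum stood at −0.88, and 2 of the 6 precursors, mir-369 and mir-889, were at least 2-fold lower and none at least 2-fold higher (5.8% and 29.6% of all precursors past the minimum). There mir-376b stood at −0.96 and mir-376a-2 at −0.84.

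**Figure D2:**
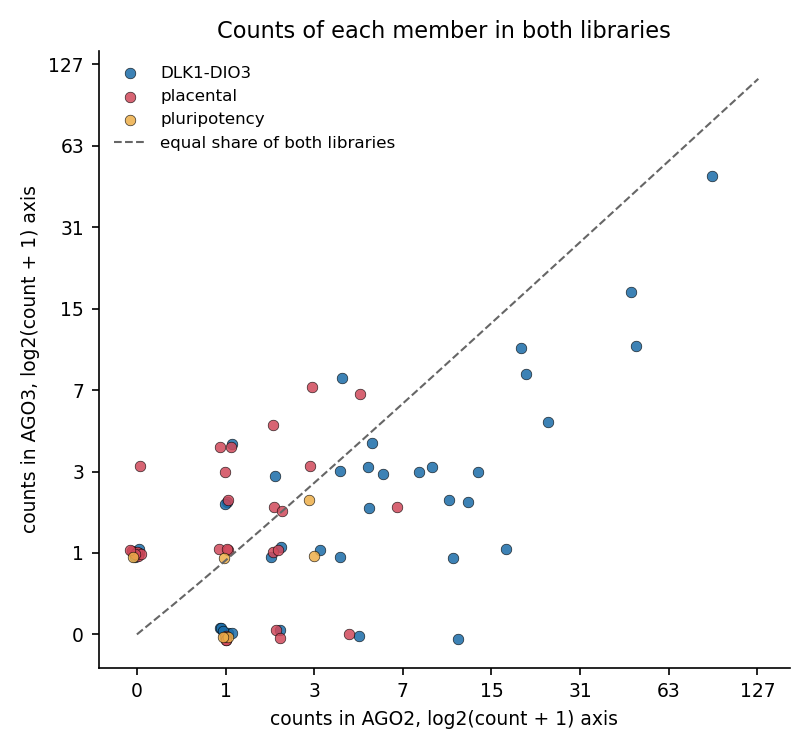
Counts of each member in AGO2 (x) and AGO3 (y), both on log2(count + 1) axes with points jittered slightly to show overlaps. The dashed line marks equal shares; mir-376c is the point farthest to the right, at 93 and 47 counts, and most DLK1-DIO3 points lie below the line.

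The mir-376 hairpins lie close together, with mir-654 between mir-376a-2 and mir-376b, and make closely related miRNAs. The precursor mir-376c was counted 93 times with AGO2 and 47 times with AGO3, at a log2 ratio of −0.79 (−1.33 to −0.27). For mir-376b the counts were 48 and 17, at −1.28 (−2.20 to −0.48). The copies mir-376a-1 and mir-376a-2, with 19 and 10 and with 21 and 8 counts, stood at −0.71 (−2.004 to 0.44) and −1.16 (−2.59 to 0.03). All 4 were thus higher with AGO2, with the interval reaching past 0 in both mir-376a copies. Summed, they gave 181 and 82 counts, at −0.95 (−1.35 to −0.57).

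Further along the region, mir-369 had 47 counts in AGO2 and 11 in AGO3, at −1.86 (−3.002 to −0.94). For mir-889 the counts were 24 and 5, at −1.98 (−3.82 to −0.65). These 2 had the lowest ratios among the 6 precursors with at least 20 counts. Without the mir-376 hairpins the other 33 precursors summed to 221 and 71 counts, at −1.44 (−1.86 to −1.06), so the direction of the sum did not rest on mir-376.

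**Figure D3:**
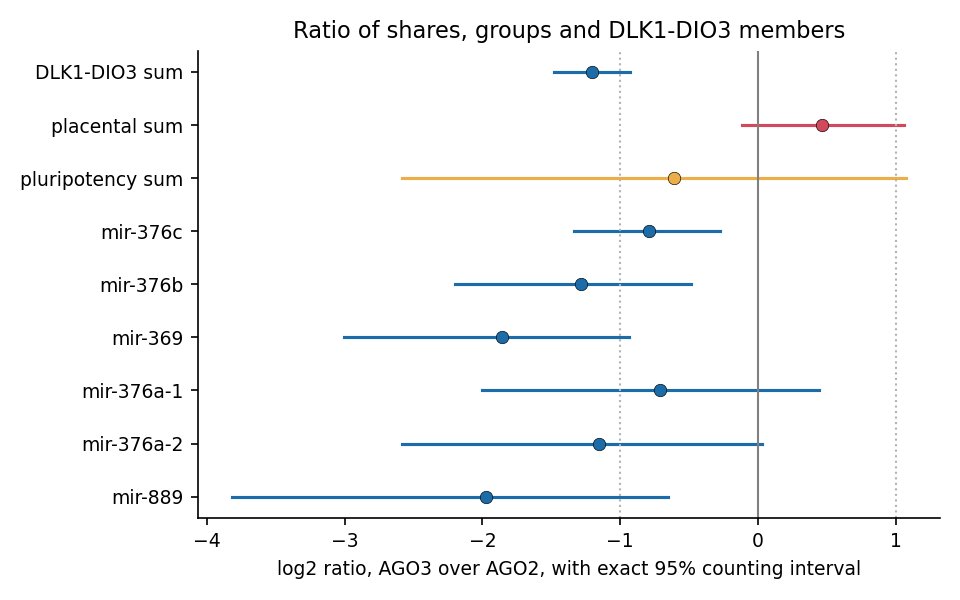
Log2 ratio of AGO3 over AGO2 with exact 95% counting intervals (horizontal lines) for the 3 group sums and for the DLK1-DIO3 precursors with at least 20 counts; dotted lines mark 2-fold. The DLK1-DIO3 sum at −1.20 lies wholly below 0, whereas the placental and pluripotency intervals span 0.

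Precursors with 10 to 19 counts showed the same direction in sum. The 9 of them had 97 counts in AGO2 and 23 in AGO3, at −1.87 (−2.61 to −1.22). The counts were 17 and 1 for mir-154, 14 and 3 for mir-410, 12 and 2 for mir-411, 11 and 2 for mir-136 and 11 and 1 for mir-1197. These 5 were chosen for naming after their values were seen. The precursor mir-409 had 11 counts in AGO2 and 0 in AGO3. Setting the 0 to the floor of 3 counts in that library made it 3.21-fold lower in AGO3. That value leaves out the counting error of the 11 counts. The counting interval of mir-409 had its upper end at a log2 ratio of −1.14. The exception was mir-380, with 4 and 8 counts at 1.09 (−0.71 to 3.37), an interval that spans 0. The 22 precursors with fewer than 10 counts summed to 53 and 32, at −0.53 (−1.22 to 0.12), a difference not detectable at this depth.

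The placental cluster, asked the same question, showed no difference beyond counting error. Its sum stood at 0.46 (−0.11 to 1.06), with more counts in AGO3 for 16 of 32 precursors, more in AGO2 for 10 and equal counts for 6. In shares, which allow for library size, 22 were higher in AGO3, and 55.1% of all precursors were. Both proteins had a count for 16, AGO2 alone for 7 and AGO3 alone for 9, at a median of 2 counts over both libraries. The same shares over all precursors were not computed, so these are not read as a difference between the proteins. None reached 20 counts. The most abundant was mir-520d with 5 counts in AGO2 and 7 in AGO3, followed by mir-520a with 3 and 7, mir-517b with 7 and 2 and mir-526b with 2 and 5. Next came mir-512-2 with 3 and 3, mir-518f and mir-524 with 1 and 4 each, and mir-512-1 with 2 and 2, which was tied at 4 counts with mir-515-2, mir-522 and mir-523 and is named by the order of names. The intervals of all 8 single ratios spanned 0. The 8 mir-520 precursors summed to 10 and 20 counts, at 1.15 (0.03 to 2.45), and the other 24 to 37 and 37, at 0.19 (−0.51 to 0.89). The mir-520 set was chosen after the counts were seen. With many identical or near-identical copies in this array, counts of single hairpins may be split arbitrarily.

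The pluripotency group held too few counts for a direction. Its sum stood at −0.61 (−2.58 to 1.07). Counts in AGO2 and AGO3 were 3 and 2 for mir-371a, 3 and 1 for mir-367, and 1 and 1 for mir-371b. The precursors mir-302a and mir-302b had 1 count in AGO2 alone, and mir-302c had 1 in AGO3 alone. Summed by cluster, mir-302 with mir-367 had 5 and 2 counts, and mir-371 to mir-373 had 4 and 3. The hairpins mir-371a and mir-371b overlap as hairpins read from opposite strands, and the labels do not say whether counting used strand, so that their counts cannot be told apart.

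The interval of the DLK1-DIO3 sum (−1.48 to −0.93) and that of the placental sum (−0.11 to 1.06) did not overlap, while the interval of the pluripotency sum overlapped both. These intervals compare 2 libraries, not the proteins in general.

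The same precursors were then followed in a genome-wide list of read stacks (runs of overlapping reads, in build hg19) in which libraries are pooled. The list holds 68649476 reads, 6.05 times the reads of both libraries above, and the labels do not say which libraries it combines. Stacks whose sense annotation names a member gave 1008 reads in 60 stacks for DLK1-DIO3, 364 reads in 37 stacks for the placental group and 53 reads in 11 stacks for the pluripotency group. Scaled in the same way to all reads in stacks on miRNA precursors, these were 19.4, 7.002 and 1.02, against 84.9, 15.9 and 2.14 CPM over both libraries summed. The order of the groups was the same in stacks and libraries, and the distance between DLK1-DIO3 and the placental group was smaller in the stacks.

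Within the span of the DLK1-DIO3 stacks, chr14:101335412-101533123, nearly every read lay on a hairpin. Of 1021 reads there, 1007 (98.6%, interval 97.7 to 99.2) were on the sense strand of a miRNA precursor, 4 were antisense to a precursor, and 10 lay elsewhere in stacks of at most 2 reads. In the placental span, chr19:54177484-54261558, 364 of 369 reads (98.6%, 96.9 to 99.6) were on hairpins in sense. Stacks outside the hairpins held at most 1 read there. The pluripotency span on chromosome 4 differed, with 32 of 49 reads (65.3%, 50.4 to 78.3) in sense of a hairpin and 17 antisense. In the pluripotency span on chromosome 19 all 21 reads were in sense. One number-matched member lay outside the region: mir-544b, with a stack of 1 read at chr3:124451297-124451317 and 1 count in AGO3.

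Reads in DLK1-DIO3 were uneven along the chromosome. A gap of 111 kb between stacks divides them into an upstream block of 42.1 kb, around mir-127, mir-136 and the other hairpins that lie near or antisense to the retrotransposon-like gene RTL1, and a downstream block of 44.7 kb from mir-379 to mir-656. The upstream block (chr14:101335412-101377545) had 37 reads over 7 precursors, and these precursors had 15 counts in AGO2 and 2 in AGO3, or 4.3 and 0.655 CPM. The downstream block (chr14:101488408-101533123) had 970 reads over 34 precursors, at 108 and 47.1 CPM. Both blocks thus had more counts with AGO2. The median stack held 2 reads upstream and 10 downstream.

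**Figure D4:**
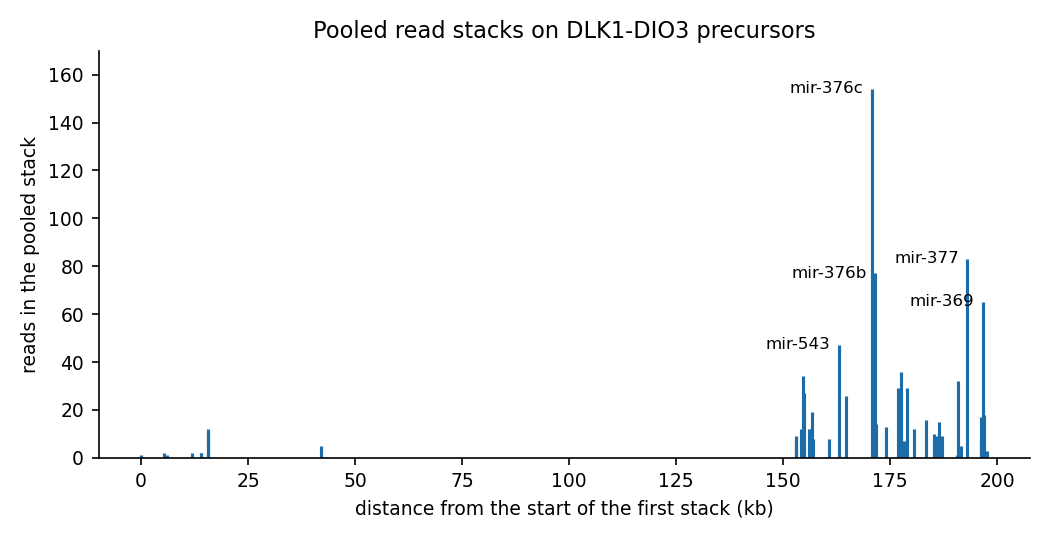
Reads in each pooled stack on a DLK1-DIO3 precursor (vertical lines) against distance in kb from the first stack. Stacks before the gap of 111 kb hold at most 12 reads, and the 5 tallest, mir-376c, mir-377, mir-376b, mir-369 and mir-543, all lie after it.

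The deepest DLK1-DIO3 stack lay on mir-376c (chr14:101506069-101506090) with 154 reads. It was followed by mir-377 (chr14:101528430-101528454) with 83 reads, mir-376b (chr14:101506834-101506855) with 77 and mir-369 (chr14:101531977-101531999) with 65. Next came mir-543 with 47, mir-654 and mir-487b with 36 each and mir-299 with 34. Of these, mir-376c, mir-376b and mir-369 also led in the libraries. The others did not: mir-377 had 7 counts over both libraries, mir-487b had 4 and mir-543 had 1.

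In the placental group the deepest stacks were on mir-518f (chr19:54203321-54203343, 35 reads), mir-518c (chr19:54212050-54212072, 32 reads), mir-519e (28 reads), mir-526b (26 reads) and mir-519d (20 reads). In the libraries mir-518c and mir-519e had 1 count each and mir-519d had none. In the pluripotency group mir-367 led with 10 reads (chr4:113569033-113569054), followed by 6 reads each on mir-371a, mir-371b, mir-373 and mir-302a. The mir-302a stack with 6 reads spanned 46 bases, longer than any mature miRNA, whereas all stacks on the other groups' members spanned 20 to 25 bases.

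Across members with both a count and a stack, Pearson's r of the log2 values was 0.60 over 34 DLK1-DIO3 precursors and 0.14 over 21 placental ones; these are descriptions over precursors that share libraries, with no test. All miRNA stacks together held 7.95 times the library counts, a ratio of sums in which abundant precursors weigh most. How many of all precursors exceed it was not computed, so members were not counted against it. Members with stacks and no library row numbered 8 in DLK1-DIO3, with at most 16 reads, 7 in the placental group, with at most 25, and 3 in the pluripotency group, with at most 6. Conversely 11 placental members with a count, such as mir-517b, had no stack under their own name. Among them were mir-517a with mir-517b and mir-512-1 with mir-512-2, pairs that share an identical mature miRNA. The same held for mir-329-1 and mir-329-2 in DLK1-DIO3, whereas mir-519a-1 shares a mature miRNA too and had 3 stack reads. How the list placed reads that match several hairpins was not tested, which limits the comparison of stacks with libraries.

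**Figure D5:**
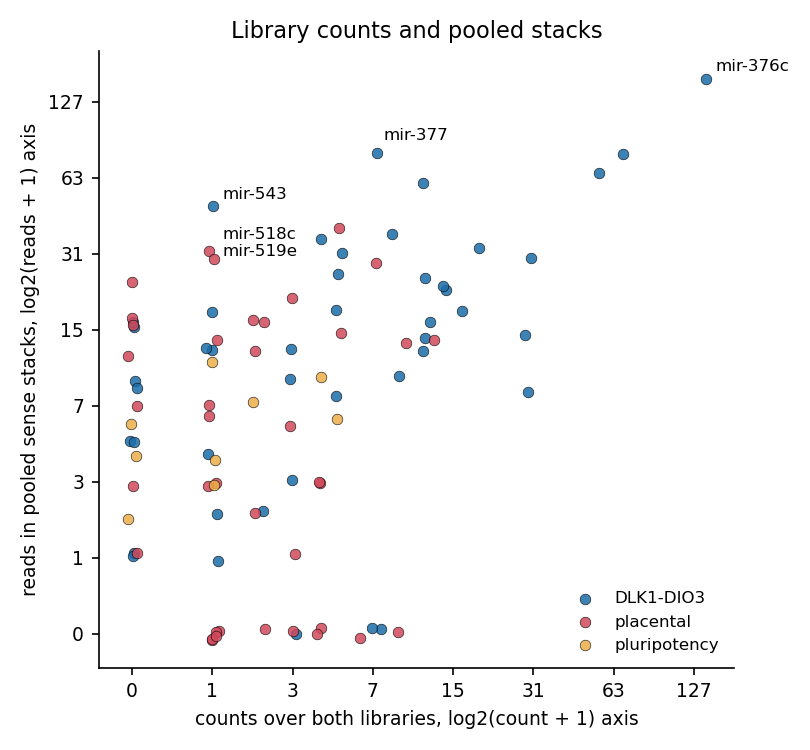
Reads in pooled sense stacks (y) against counts over both libraries (x) for each member, on log2(value + 1) axes with slight jitter. The precursor mir-376c is highest on both, while mir-377, mir-543, mir-518c and mir-519e stand high in stacks with 1 to 7 library counts.

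Stacks on both sides of a hairpin allowed a view of arm use, in 18 DLK1-DIO3 precursors with exactly 2 sense stacks. Arms were read from the order of the stacks on the strand, and their spacing differed from that of the RefSeq arms by at most 3 bases in 17 of the 17 with both arms listed. The 3p side held 463 reads and the 5p side 119. It had more reads in 11 precursors, among them mir-376c (154 against 2), mir-369 (65 against 2), mir-154 (32 against 1) and mir-381 (29 against 1). The 5p side had more in 6, such as mir-409 (17 against 7), and mir-127 was equal. The mature sequence printed for mir-376c and mir-369 above is therefore that of the arm with more stack reads. In the placental group 9 precursors allowed this view, with 58 reads on the 5p side and 71% of reads on the 3p side. By precursor the split was nearly even, with more reads on the 3p side in 5 and on the 5p side in 4. The precursors mir-526b (26 against 3) and mir-518c (32 against 1) leaned to 3p, and mir-520a (12 against 2) and mir-524 (12 against 2) to 5p. For mir-520a the arm with more reads was thus not the one with the AAGUGCU seed. In the pluripotency group mir-371b (6 against 1) and mir-302a (6 against 5) had more reads on the 5p side. The spacing of the mir-302a stacks differed from that of its RefSeq arms by 19 bases.

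The stack list also counts edits, that is, differences from the reference, without naming the bases. There were 0.159 edits per read over DLK1-DIO3 stacks, 0.206 over placental and 0.245 over pluripotency stacks, and 0.161 over all miRNA stacks. The pluripotency value rests on 13 edits in 53 reads. Of these edits, 5 lie in the 46-base mir-302a stack, which holds 6 reads. Among stacks with at least 10 reads the median of all 1257 was 0.143, with quartiles of 0.102 and 0.166. Above that upper quartile were 12 of 28 such stacks in DLK1-DIO3 and 10 of 16 in the placental group, and 314 of all 1257. The medians were 0.150 in DLK1-DIO3 and 0.174 in the placental group. The lowest values there were 0, as on mir-410 with 18 reads, and 0.038 on mir-526b with 26 reads. Depth was not matched between these stacks and all 1257, so the counts are not read as a difference in edits. The highest in DLK1-DIO3 were mir-376a-1 with 0.429, from 6 edits in 14 reads, mir-382 with 0.300, from 3 in 10, and mir-376b with 0.273, from 21 in 77. The deepest stack, on mir-376c, had 0.195, and that on mir-376a-2, with 8 reads, had 0.125. In the placental group mir-520d had 0.385, from 5 edits in 13 reads, and mir-519e had 0.357, from 10 in 28. Which base changes these are cannot be read from the file, and reads of near-identical copies placed on the wrong hairpin would also be counted as edits; neither was tested.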

How the data were processed

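Raw counts per miRNA precursor were deposited, 1 file per library, with reads in all, mapped and unmapped per the file headers. The authors' counts add up to the mapped reads of the header. The submitters' processing notes list Bowtie2 2.1.0 and hg19 but not what each was used for. How strand, and reads that match several precursors, were handled is not stated there. The deposited stack list gives a count of reads per stack, and its score, an entropy, was deposited by the authors but not used. No column of another sample was used.

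Members and lists were chosen with earlier results of these data known. An absent row was set to 0. Named precursors were the DLK1-DIO3 members with at least 20 counts, the 8 most abundant placental and pluripotency members, and the 8, 5 and 5 deepest stacks. At least 2-fold apart was a call. All 107 members were matched by symbol to RefSeq (GRCh38.p14); no coordinates were converted. The ratio was tested on simulated counts. Alternatives were scaling (median of ratios; TMM, edgeR 4.0.16 in R 4.3.3), pseudocount, count minimum, copies and stack choice. Tables were made with pandas 2.3.3 and numpy 2.4.6 in Python 3.11.15, intervals with scipy 1.17.1 and plots with matplotlib 3.10.9.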

Additional observations from a re-analysis of the deposited data

Results flagged for a closer look

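In the pooled stack list, outside the library counts, a stack antisense to mir-302b held 16 reads (chr4:113569647-113569673, plus strand), while the sense stack on mir-302b held 4. It was picked as the antisense stack with more than 3 reads, which is no test, and the list is deeper than both libraries. It spanned 27 bases. The annotation in the list places it in sense of an intron of LARP7, a gene that overlaps these hairpins on the opposite strand. The other 8 stacks that were antisense to a member and in sense of none held 1 read each. Stacks on mir-371a and mir-371b, which overlap on opposite strands, are in sense of their own hairpin and antisense to the other, and were left out here.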

How the results depend on the processing

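The summed log2 ratio of each group kept its sign under all alternatives run, and only that of DLK1-DIO3 left its counting interval, with scaling to all reads, at −0.88. The number of DLK1-DIO3 precursors at least 2-fold lower in AGO3 was 4 of 6 with a minimum of 20 counts. It was 12 of 15 with a minimum of 10, 2 of 3 with a minimum of 50 and 21 of 37 with none, where 12.7%, 9.52% and 18.7% of all precursors were called. At least 2-fold higher were 1 with a minimum of 10 and 4 with no minimum, where 18.6% and 23.3% of all were. Scaled to all reads, added after seeing the data, it was 2 of 6, as mir-376b and mir-376a-2 fell short of 2-fold. The fewer precursors at a minimum of 50 follow from the minimum itself. Members counted fell from 32 to 20 in the placental group and from 6 to 3 in the pluripotency group when at least 2 counts were asked for, and to 16 and 3 when a count in each library was. Pluripotency stack reads dropped from 53 to 10 with stacks of at least 10 reads alone. The log2 ratios of named precursors were also run under other scalings and pseudocounts, chosen after seeing the data; all 80 values lay within the main counting interval, 77 with the same sign and 3 at 0 (mir-512-1, mir-512-2 and mir-371b, with equal counts, by median of ratios). No paired analysis was possible because each protein has 1 library. Depth limits the placental and pluripotency groups: most members have at most 3 counts.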

Other observations

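Imprinted miRNAs outside the rule were not all near silence. In the imprinted GNAS locus mir-296 had 14054 counts in AGO2 and 13326 in AGO3, while its neighbour mir-298 had 6 and 12. At MEST, mir-335 had 192 and 300 counts, and at IGF2 and H19, mir-483 had 430 and 380 and mir-675 had 11 and 10. These 5 precursors summed to 0.422% of AGO2 and 0.459% of AGO3 counts, a log2 ratio of 0.12 (0.09 to 0.16). Of the 5 further numbers fixed for the DLK1-DIO3 region, 1 had a row: mir-1247, which lies beside DIO3, had 333 and 202 counts, at −0.53 (−0.79 to −0.27), more counts in each library than any member that the rule names. The placental mir-1323, also outside the rule, had 0 and 1.

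Counts of marker lists for other cell types went in both directions. Blood markers summed to 1009 and 5973 counts and, without mir-486, to 337 and 228. Muscle markers summed to 702 and 391 counts and, without the mir-499 precursors, to 60 and 116. Of the other lists, neurons summed to 49921 and 74475, smooth muscle and fibroblasts to 1400 and 1890, and stratified epithelium to 59 and 91. The pancreatic islet marker mir-375 had 89 and 123 counts. Their part in the results above was not tested.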
